A study of Rattus norvegicus with 24 samples.

Results

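Described here are 8 genes of the circadian clock in the heart: Arntl (ENSRNOG00000014448, also called Bmal1), Clock (ENSRNOG00000002175), Per1 (ENSRNOG00000007387), Per2 (ENSRNOG00000020254), Per3 (ENSRNOG00000018413), Nr1d1 (ENSRNOG00000009329), Nr1d2 (ENSRNOG00000046912) and Dbp (ENSRNOG00000021027). They were taken by Ensembl gene ID from a count table of 23098 IDs, and all 8 were found. The table carries no gene symbols, so the symbols are those given to the IDs when the genes were chosen. They could not be checked against RefSeq, whose gene table for rat held no Ensembl IDs. Dbp and Arntl were taken to be selected on their measured change between 1 day after cord transection and sham. In that comparison Dbp had the largest rise and Arntl the largest fall among called genes with a mean log2 level of at least 1. The list was completed from the same clock with results of these data known. Values from that comparison are therefore given as a description, with no p-value, and nothing is read from its count of calls. The comparisons that share its sham or its 1 day libraries are described by their size, their error and the genes called (adjusted p under 0.05), and p-values are printed for the comparison of 12 weeks with 3 days, which shares no library with it.

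RNA was sequenced from the left ventricular free wall of male Wistar rats, with 6 libraries in each of 4 groups. In 3 groups the spinal cord had been severed completely in the high thoracic region (spinal cord injury, SCI), and hearts were collected 1 day, 3 days or 12 weeks later. In the sham group the dura was opened at that level with the cord left whole, and hearts were collected 7 days later, a time that none of the SCI groups shares. The question was how such an injury changes gene expression in the heart. Since no label states that each library came from its own rat, the p-values measure the spread between libraries, which may in part be technical. The hour of the day at which hearts were collected is not given in the sources used here. For transcripts that cycle over the day, a shift in phase and a change in mean level cannot be told apart from 1 sample per heart.

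The clock is a feedback loop of transcription that runs in nearly every cell, the cardiomyocyte included. The proteins of Arntl and Clock form a dimer that binds E-box sequences and activates the Per genes, Nr1d1, Nr1d2 and Dbp. The PER proteins return to the nucleus and repress that dimer. The nuclear receptors REV-ERB alpha and REV-ERB beta, made from Nr1d1 and Nr1d2, repress Arntl through retinoic acid receptor-related orphan receptor elements (RRE). DBP, the protein of Dbp, is an output factor that activates genes holding a D-box, Per genes among them. In the healthy heart these transcripts rise and fall daily, with Arntl high when Dbp and Nr1d1 are low.

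The short control elements of this loop can be read in the promoters of 3 of the genes, which are shown as examples of the elements through which the loop is known to act. RefSeq (rat build GRCr8) gave 10 promoter windows for the 8 genes, each of 250 bases before and 50 bases after a start. They were searched on both strands for the E-box CACGTG, the E-prime box CACGTT, the D-box TTATGTAA or TTACGTAA, and the RRE core TAGGTCA or TGGGTCA. Matches are in capitals, and sequences run 5′ to 3′ on the strand of the gene. The windows are chr1:176766078-176766377 on the plus strand for Arntl, listed as Bmal1, chr9:99496944-99497243 on the minus strand for Per2, and chr10:84231763-84232062 and chr10:84229405-84229704 on the minus strand for the first and the second start of Nr1d1.
Arntl: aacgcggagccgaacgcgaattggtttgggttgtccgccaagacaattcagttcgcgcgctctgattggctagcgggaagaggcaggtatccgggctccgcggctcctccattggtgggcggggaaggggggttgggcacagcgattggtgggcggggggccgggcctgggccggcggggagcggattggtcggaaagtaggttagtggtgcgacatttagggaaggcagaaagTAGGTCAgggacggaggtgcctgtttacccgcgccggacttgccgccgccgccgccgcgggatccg
Per2: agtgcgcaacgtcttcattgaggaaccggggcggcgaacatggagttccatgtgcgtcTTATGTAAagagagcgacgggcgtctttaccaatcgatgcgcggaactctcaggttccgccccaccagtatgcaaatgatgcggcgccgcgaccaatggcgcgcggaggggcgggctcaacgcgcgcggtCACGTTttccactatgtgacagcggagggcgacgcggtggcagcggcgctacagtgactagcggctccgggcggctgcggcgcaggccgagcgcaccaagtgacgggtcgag
Nr1d1, first start: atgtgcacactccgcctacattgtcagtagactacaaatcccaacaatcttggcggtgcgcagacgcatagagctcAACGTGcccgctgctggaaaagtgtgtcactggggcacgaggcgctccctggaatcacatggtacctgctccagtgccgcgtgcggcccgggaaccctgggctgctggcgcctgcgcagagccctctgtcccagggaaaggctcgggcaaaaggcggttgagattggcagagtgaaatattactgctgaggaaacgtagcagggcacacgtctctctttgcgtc
Nr1d1, second start: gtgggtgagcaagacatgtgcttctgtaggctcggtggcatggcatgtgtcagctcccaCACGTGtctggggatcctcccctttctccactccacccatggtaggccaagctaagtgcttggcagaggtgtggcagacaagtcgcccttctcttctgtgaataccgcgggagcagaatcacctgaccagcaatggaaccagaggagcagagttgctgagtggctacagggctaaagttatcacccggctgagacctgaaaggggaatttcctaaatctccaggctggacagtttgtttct
In the Arntl window an RRE core began 16 bases before the start. The Per2 window held a D-box 192 bases and an E-prime box 62 bases before the start. At Nr1d1 an E-prime box, read on the opposite strand, began 174 bases before the first start, and an E-box began 191 bases before the second. Among all 33469 RefSeq promoter windows, 6.42% held the E-box, 4.83% the E-prime box, 1.01% the D-box and 6.6% the RRE core. The other windows, those of Clock, Per1, Per3, Nr1d2 and Dbp, held none of these letters. A match is a description of the sequence and not evidence of binding.

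The libraries held 15002476 to 70340174 counts, and the 8 genes had 83 to 21653 counts in a library, so counting error was small beside the spread between libraries. All 8 passed the filter on low counts, among 15065 genes tested. Levels are given in CPM, the counts relative to library size after scaling by trimmed mean of M-values (TMM) factors, and levels of different genes are not compared because CPM ignores gene length. By the numbers in their names, libraries 57 to 68 are those of 3 days and sham, and libraries 77 to 88 those of 1 day and 12 weeks. The comparisons of 3 days with sham and of 12 weeks with 1 day lie within 1 such run. In the others, a difference between the runs cannot be told apart from the difference between groups. In tissue, fewer cells of a type and less RNA per cell cannot be told apart either.

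Arntl and Clock, the activators, were lower in every SCI group than in sham by mean level. Arntl ranged from 3.33 to 6.73 CPM at 1 day with a median of 4.61, from 6.75 to 13.8 CPM at 3 days with a median of 8.28, from 5.24 to 39.4 CPM at 12 weeks with a median of 23.2, and from 13.7 to 54.6 CPM in sham with a median of 47.8. All 1 day libraries lay below all sham libraries, while at 12 weeks the values spread over much of both ranges. The log2 fold change of Arntl against sham was -3.08 (SE 0.38) at 1 day, -2.18 (SE 0.368) at 3 days and -0.76 (SE 0.348) at 12 weeks. At 1 day 6 of the 15065 genes had a change of larger size, and at 3 days 26 had one. These ranks are a description only. Arntl was taken to be chosen by its 1 day change, and the 3 day comparison uses the same sham libraries. Clock moved in the same direction on a smaller scale, with 68.7 ± 4.95 CPM at 1 day, 79.3 ± 10.1 CPM at 3 days, 81.9 ± 9.52 CPM at 12 weeks and 102.3 ± 12.7 CPM in sham (SD, n = 6 each). Its log2 fold changes against sham were -0.57 (SE 0.0892), -0.37 (SE 0.0893) and -0.32 (SE 0.0892) in order of time. No 1 day library reached the lowest sham library of Clock, which had 83.8 CPM.

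The 3 Per genes, whose proteins repress the activators, did not move as a block. Per3 showed the widest separation, with 67.3 to 97.7 CPM at 1 day, 60.1 to 78.2 CPM at 3 days, 18.7 to 55.7 CPM at 12 weeks and 10.1 to 49.1 CPM in sham. Every library at 1 and 3 days lay above every sham library. Its log2 fold change against sham was 2.03 (SE 0.305) at 1 day, 1.75 (SE 0.303) at 3 days and 0.89 (SE 0.3) at 12 weeks. Per1, which also responds to acute signals, had 293.9 ± 42.6 CPM at 1 day, 220.5 ± 23.8 CPM at 3 days, 219.5 ± 17.1 CPM at 12 weeks and 240.9 ± 17.2 CPM in sham (SD, n = 6 each). By mean level the 1 day group stood above sham, by a log2 fold change of 0.29 (SE 0.0846), and the later values were -0.13 (SE 0.0846) at both 3 days and 12 weeks. Per2 followed another course, with 87.0 ± 7.65 CPM at 1 day, 80.9 ± 10.3 CPM at 3 days, 111.3 ± 17.3 CPM at 12 weeks and 71.9 ± 27.4 CPM in sham. Its highest mean came at 12 weeks, when the log2 fold change against sham was 0.63 (SE 0.167), compared with 0.27 (SE 0.166) at 1 day and 0.17 (SE 0.167) at 3 days. Sham libraries of Per2 spread from 45.8 to 107.5 CPM and overlapped every SCI group.

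Nr1d1 and Nr1d2, the REV-ERB receptor genes, shared a high level at 1 day and parted later. Nr1d2 ranged from 96.4 to 125.5 CPM at 1 day, from 86.6 to 115.4 CPM at 3 days, from 34.1 to 101.6 CPM at 12 weeks and from 37.1 to 64.1 CPM in sham. The 1 and 3 day libraries all lay above sham. Nr1d1 ranged from 43.3 to 89.5 CPM at 1 day with a median of 50.8, from 28.6 to 46.0 CPM at 3 days with a median of 40.2, from 5.48 to 23.0 CPM at 12 weeks with a median of 8.34, and from 10.02 to 55.6 CPM in sham with a median of 25.8. Against sham, the log2 fold changes of Nr1d1 were 1.15 (SE 0.322), 0.49 (SE 0.321) and -1.30 (SE 0.335) in order of time, so that the direction at 12 weeks was opposite to that at 1 day. Those of Nr1d2 were 1.28 (SE 0.219), 1.13 (SE 0.219) and 0.38 (SE 0.218). The large sham range of Nr1d1 came from 1 library at 10.02 CPM and 1 at 55.6 CPM, with the other 4 between 19.8 and 28.8 CPM.

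Dbp, the output factor, ran opposite to Arntl. It ranged from 37.3 to 103.3 CPM at 1 day with a median of 60.2, from 22.0 to 40.2 CPM at 3 days with a median of 28.2, from 5.96 to 21.6 CPM at 12 weeks with a median of 9.80, and from 3.56 to 13.4 CPM in sham with a median of 5.62. Neither acute group overlapped sham, and the 12 week group did. The log2 fold change against sham was 3.32 (SE 0.349) at 1 day, 2.11 (SE 0.338) at 3 days and 0.81 (SE 0.338) at 12 weeks. By mean level the order of the groups was 1 day, 3 days, 12 weeks and sham for Dbp, Per3 and Nr1d2, and exactly the reverse for Arntl and Clock. Neighbours in that order that were not called different were 3 days and 1 day for Per3, Nr1d2, Arntl and Clock, 12 weeks and sham for Dbp, Nr1d2 and Arntl, and 12 weeks and 3 days for Clock. Per1 had the order 1 day, sham, 3 days and 12 weeks, of which sham, 3 days and 12 weeks were not called different from each other. For Per2 the order was 12 weeks, 1 day, 3 days and sham, with no call between neighbours. For Nr1d1 it was 1 day, 3 days, sham and 12 weeks, and of these neighbours 12 weeks and sham were called different.

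**Figure D1:**
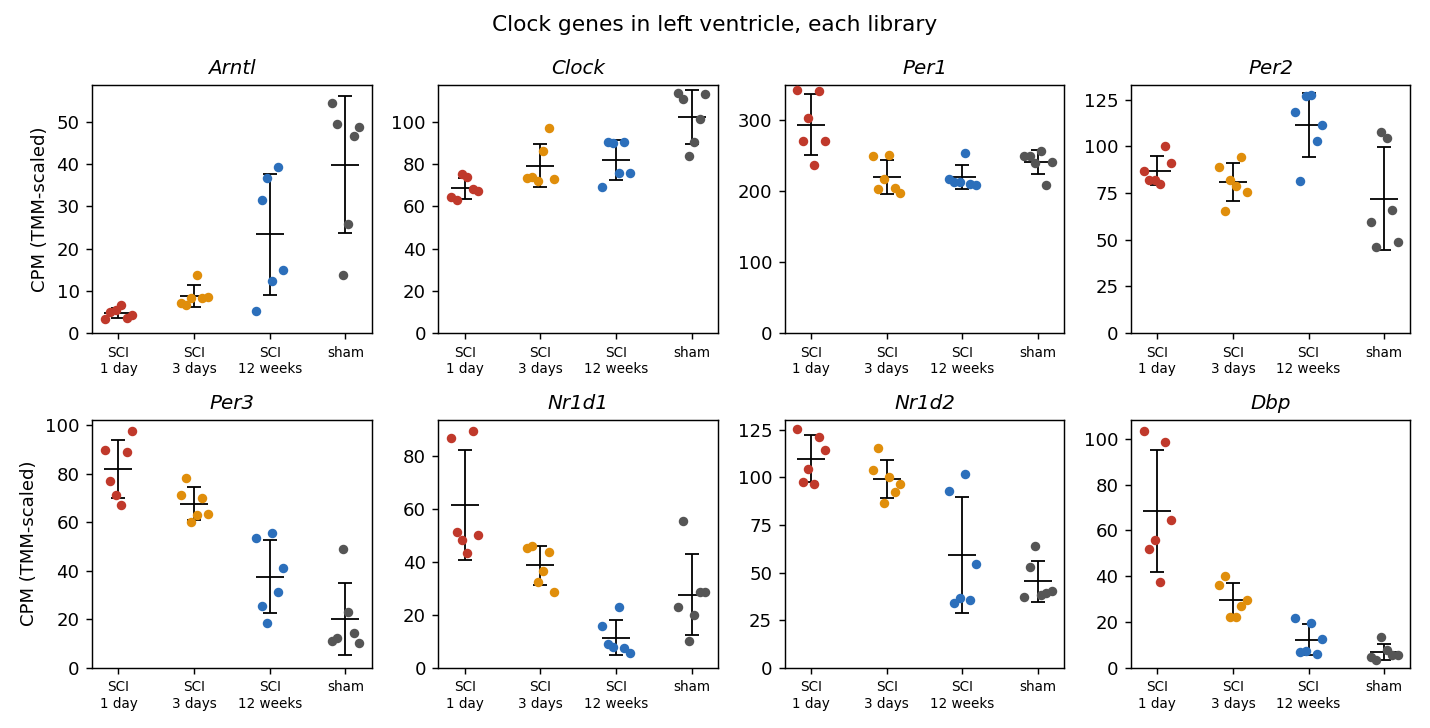
Level of each clock gene in every library, in CPM on a linear axis that starts at 0, with SCI groups in order of time and sham on the right. Points are libraries and bars are the mean ± SD of 6. The means of Dbp, Per3 and Nr1d2 are highest at 1 day and lower group by group towards sham, those of Arntl and Clock show the reverse, and the 12 week points of Arntl and Nr1d2 split into a high and a low set.

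Counted over the whole list, edgeR's quasi-likelihood test with Benjamini-Hochberg adjustment over 15065 genes gave the following calls. The comparison of 1 day with sham was taken to be behind the choice of genes. In it 7 of 8 were past the threshold, where 24% of all genes were (11.9% higher, 12.1% lower). Groups did not overlap in 5 of the 8 genes and in 14.8% of all genes. Nothing is read from these counts. At 3 days against sham, Per3, Nr1d2 and Dbp were called higher and Arntl and Clock lower, 5 of 8 against 17.5% of all genes (8.88% higher, 8.59% lower). The groups did not overlap in 3 of the 8 genes and in 8.93% of all genes. At 12 weeks against sham, Per2 and Per3 were called higher and Clock and Nr1d1 lower, 4 of 8 against 22.1% of all genes (11.3% higher, 10.9% lower). Here all 8 genes overlapped between the groups, while 9.6% of all genes did not. The median size of the log2 fold change over the 8 genes was 1.22 at 1 day, 0.81 at 3 days and 0.70 at 12 weeks, beside 0.19, 0.17 and 0.18 over all genes. All these comparisons use the same sham libraries, so the sizes are a description, and nothing is read from that at 1 day. At 12 weeks the call of Per3 was lost without any one of sham replicates 1, 2, 5 and 6 or 12 week replicates 1, 4 and 6, with a log2 fold change between 0.74 and 0.87, and it was 1.40 without sham replicate 3. At 12 weeks Arntl was called lower without sham replicate 3 (-0.94), and Dbp was called higher without sham replicate 3 (1.14) or 12 week replicate 5 (0.96).

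**Figure D2:**
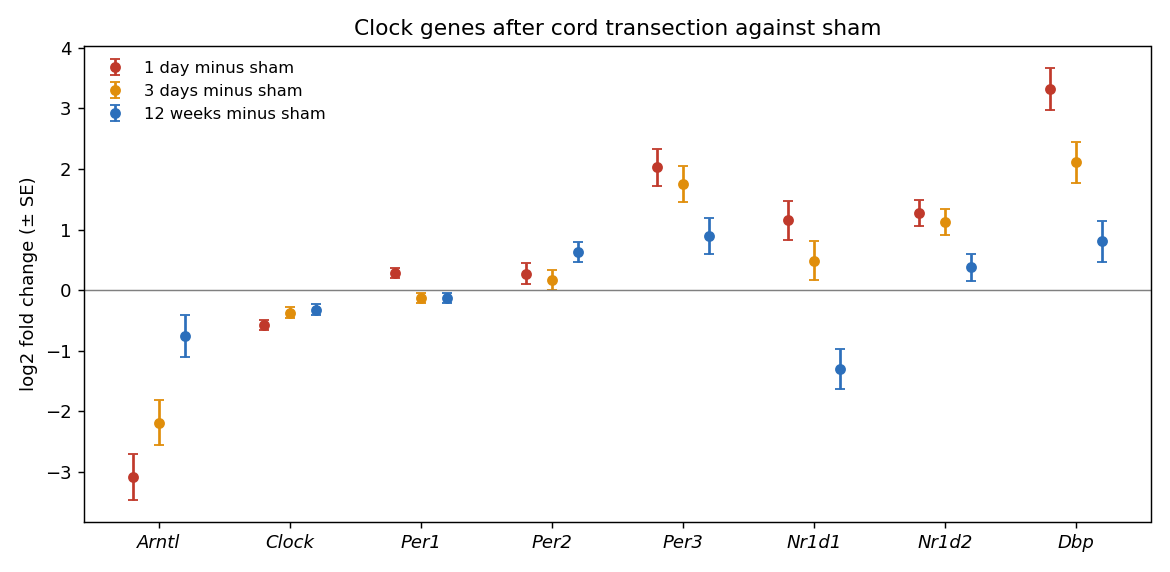
Log2 fold change of each clock gene at 1 day, 3 days and 12 weeks after transection, each minus sham, from 1 model over 24 libraries; error bars are ± 1 SE. At 1 and 3 days Arntl lies at -3.08 and -2.18 and Dbp at 3.32 and 2.11, and Nr1d1 crosses to -1.30 at 12 weeks.

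Between 3 days and 1 day fewer genes were called than in any other comparison, both in the list and over all genes. Per1 and Dbp were called lower at 3 days than at 1 day, with log2 fold changes of -0.41 (SE 0.0847) and -1.22 (SE 0.319). These are 2 of 8 genes, where 2.74% of all genes were called (1.23% higher, 1.51% lower). The 1 day libraries also served the comparison taken to be behind the choice of Dbp, so its fall is a description. The groups did not overlap for Arntl, 1 of 8 genes, and for 2.04% of all genes. All 3 day libraries of Arntl lay above all 1 day libraries, but the difference was not called (log2 fold change 0.90, SE 0.373). The call of Dbp was lost in the fit without any one of 1 day replicates 1, 5 and 6 or 3 day replicates 1, 3, 4, 5 and 6, with values from -1.06 to -1.28.

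Between 12 weeks and 1 day, within 1 run of library numbers, Arntl (2.32, SE 0.373) and Clock (0.25, SE 0.0893) were called higher. Nr1d1 (-2.45, SE 0.342), Dbp (-2.51, SE 0.338), Per3 (-1.13, SE 0.297), Nr1d2 (-0.90, SE 0.218) and Per1 (-0.42, SE 0.0847) were called lower at 12 weeks. Per2 was not called (0.36, SE 0.166). The 7 calls among 8 genes stand beside 33.9% of all genes called (17.8% higher, 16.1% lower). The 12 week libraries lay wholly below the 1 day libraries for Per3, Nr1d1 and Dbp, 3 of 8 genes, and groups did not overlap in 13.4% of all genes. The small difference of Clock was not called without any one of 1 day replicates 1, 2 and 6 or 12 week replicates 2, 3 and 5, with values from 0.22 to 0.25.

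The comparison of 12 weeks with 3 days shares no library with that of 1 day with sham, which was taken to be behind the choice of genes. Whether its own values entered the choice is not known. Arntl was higher at 12 weeks, with a log2 fold change of 1.42 (SE 0.364, edgeR adjusted p = 0.00432) and levels of 23.4 ± 14.3 CPM at 12 weeks and 8.78 ± 2.57 CPM at 3 days (SD, n = 6 each). Dbp was lower at 12 weeks by -1.30 on the log2 scale (SE 0.331, edgeR adjusted p = 0.00423), and none of its 12 week libraries reached the lowest 3 day library. Nr1d1 was the member that fell most, with 11.4 ± 6.65 CPM at 12 weeks and 38.7 ± 7.31 CPM at 3 days, a log2 fold change of -1.78 (SE 0.338, edgeR adjusted p = 0.00032) that 172 of 15065 genes exceeded in size. Nr1d2 (-0.75, SE 0.218, edgeR adjusted p = 0.0106) and Per3 (-0.86, SE 0.297, edgeR adjusted p = 0.0298) were lower as well. Per2 rose at 12 weeks, by 0.46 (SE 0.167, edgeR adjusted p = 0.0368), opposite to Per3. Clock (0.05, SE 0.0894, edgeR adjusted p = 0.721) and Per1 (-0.01, SE 0.0847, edgeR adjusted p = 0.964) were not called. In total, 6 of 8 genes were called, 2 higher and 4 lower, where 31.3% of all genes were (16% higher, 15.3% lower), and the median size of change was 0.80 beside 0.22 over all genes. Dbp, Per3 and Nr1d1 did not overlap between the groups, as was so for 10.1% of all genes. The call of Per3 was lost without 3 day replicate 2 or without 12 week replicate 2, 3 or 5 (-0.72 to -0.81), and that of Per2 without any one of 3 day replicates 2, 3, 4 and 6 or 12 week replicates 1, 3, 4 and 6 (0.41 to 0.46). These groups come from different runs of library numbers. No sham library was collected at 12 weeks. In every 12 week comparison, time after injury and age of the rats cannot be told apart.

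**Figure D3:**
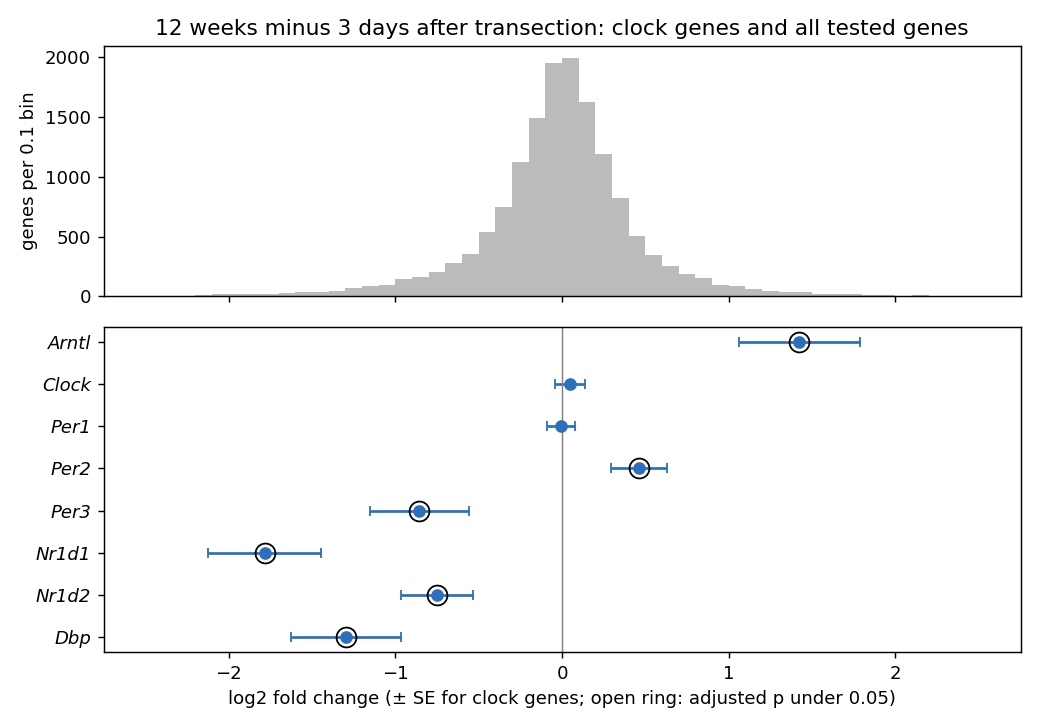
Log2 fold change at 12 weeks minus 3 days after transection. The upper panel counts all 15065 tested genes per bin of 0.1, shown between -2.5 and 2.5, and the lower panel gives each clock gene ± 1 SE, with a ring where the adjusted p is under 0.05. Arntl lies at 1.42 and Nr1d1, Dbp, Per3 and Nr1d2 between -1.78 and -0.75, while Clock and Per1 lie at 0.

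Libraries of the same group differed widely in several of these genes, though not in every group. For Arntl, Per2, Per3, Nr1d1, Nr1d2 and Dbp the spread at 12 weeks and in sham was larger than at 1 and 3 days, a difference that was not tested. The SD of log2 CPM of Arntl was 0.37 at 1 day, 0.37 at 3 days, 1.14 at 12 weeks and 0.78 in sham, where the median over all genes was 0.17, 0.21, 0.23 and 0.16. In sham, Arntl, Per3, Nr1d1, Dbp and Per2 each varied more than 97.2%, 97.9%, 97.4%, 95% and 91.5% of all genes. Per1 and Clock did not stand out, with SDs above those of 31.4% and 58% of genes in sham. At 3 days Per3, Nr1d2, Per1, Clock and Per2 had SDs above those of only 28.6%, 29.2%, 32.8%, 39.9% and 43.9% of genes. Arntl, Dbp and Nr1d1 stood at 73.2%, 72.3% and 63.2% there.

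The spread at 12 weeks was shared by 5 of the 8 genes. Arntl had 5.24, 12.4 and 14.9 CPM in 12 week replicates 1, 4 and 6, and 31.6, 36.8 and 39.4 CPM in replicates 2, 3 and 5. Dbp had 21.6, 19.4 and 12.5 CPM in replicates 1, 4 and 6, and 6.74, 7.12 and 5.96 CPM in replicates 2, 3 and 5. The 3 libraries with the least Arntl were thus the 3 with the most Dbp, and they also had the most Per3 (41.0 to 55.7 CPM, the others 18.7 to 31.4 CPM) and Nr1d2 (54.4 to 101.6 CPM, the others 34.1 to 36.5 CPM) and the least Clock (69.1 to 75.7 CPM, the others 90.1 to 90.4 CPM). The other 3 genes did not divide these libraries so. Nr1d1 had 15.6 and 23.0 CPM in replicates 1 and 4 but its lowest level, 5.48 CPM, in replicate 6, below the 7.61 to 8.90 CPM of replicates 2, 3 and 5. Per2 had 111.5 CPM in replicate 6 and 126.7 CPM in replicate 3, and Per1 was also lowest in replicate 6, at 209.0 CPM. In sham, replicate 3 stood as 12 week replicates 1, 4 and 6 did for Arntl, Clock, Dbp, Per3 and Nr1d2. It had the lowest Arntl at 13.7 CPM and the lowest Clock at 83.8 CPM. Its Dbp at 13.4 CPM, Per3 at 49.1 CPM and Nr1d2 at 64.1 CPM were the highest in sham.

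This covariation was tested on the deviation of each library from its own group mean in log2 CPM, which leaves out the group differences by which genes entered the list. Of the 28 pairs of genes, 15 correlated with an adjusted p under 0.05 in a two-sided permutation test within groups, adjusted over the 28 pairs, 8 positively and 7 negatively. By Spearman's rank correlation it was 12 pairs, and without the 12 week group, whose libraries form a high and a low set, 9 pairs. The share of pairs of other genes that would pass was not examined, so these counts have no background. Arntl and Dbp had the strongest relation, with r = -0.91 and rho = -0.93 over 24 libraries (permutation p = 1e-05 for both, the smallest the permutations could give, adjusted p = 0.00028). It was -0.89 without the 2 libraries farthest from the median of Arntl, and negative in 4 of 4 groups, at -0.98 at 1 day, -0.76 at 3 days, -0.95 at 12 weeks and -0.94 in sham. Without the 2 farthest libraries of each group, r was -0.92 at 1 day, -0.76 at 3 days and -0.96 at 12 weeks, but -0.25 in sham, where the relation rests on those 2 libraries. Without the 12 week group, r was -0.89 (permutation adjusted p = 0.00056). Single groups of 6 libraries gave no adjusted p under 0.05 over 112 exact permutation tests, the lowest adjusted p for this pair being 0.0667. The lowest exact permutation p among them was 0.00139, the least that 6 libraries can give. At that size a test passes the adjustment only together with several others, so the lack of calls cannot decide about single groups.

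Per3 and Nr1d2 varied with Dbp and against Arntl. Per3 had r = 0.81 with Dbp (rho = 0.83, permutation adjusted p = 0.00028 and 0.000653) and r = -0.84 with Arntl (rho = -0.89, permutation adjusted p = 0.00028 for both), at 0.78 and -0.82 without the 2 farthest libraries. Nr1d2 had r = 0.78 with Dbp (rho = 0.70, permutation adjusted p = 0.00112 and 0.0098) and r = -0.80 with Arntl (rho = -0.71, permutation adjusted p = 0.00414 and 0.0117), both at 0.70 in size without the 2 farthest libraries. Both relations of Nr1d2 missed the threshold without the 12 week group (0.59 and -0.63, permutation adjusted p = 0.0787 and 0.0925). In sham alone, leaving out the 2 farthest libraries took r with Dbp from 0.91 to -0.05 for Per3 and from 0.41 to -0.04 for Nr1d2. With Arntl it went from -0.98 to -0.49 for Per3 and from -0.63 to -0.24 for Nr1d2. In each SCI group these relations kept their sign without the 2 farthest libraries, the weakest being Nr1d2 with Dbp at 3 days (0.35). Clock, despite its narrow range, varied with Arntl (r = 0.79, rho = 0.75, permutation adjusted p = 0.000504 and 0.00497, r = 0.72 without the 2 farthest libraries). By group this r was 0.63 at 1 day, 0.43 at 3 days, 0.98 at 12 weeks and 0.95 in sham. Without the 2 farthest libraries of each group it was 0.30, 0.20, 0.98 and 0.74, and rho at 3 days was -0.09. Clock had r = -0.57 with Nr1d2 (rho = -0.46, permutation adjusted p = 0.0207 and 0.0874). Without the 12 week group that r was -0.37 (permutation adjusted p = 0.289). With Per3 the r of Clock was -0.73, but 0.07 at 3 days.

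**Figure D4:**
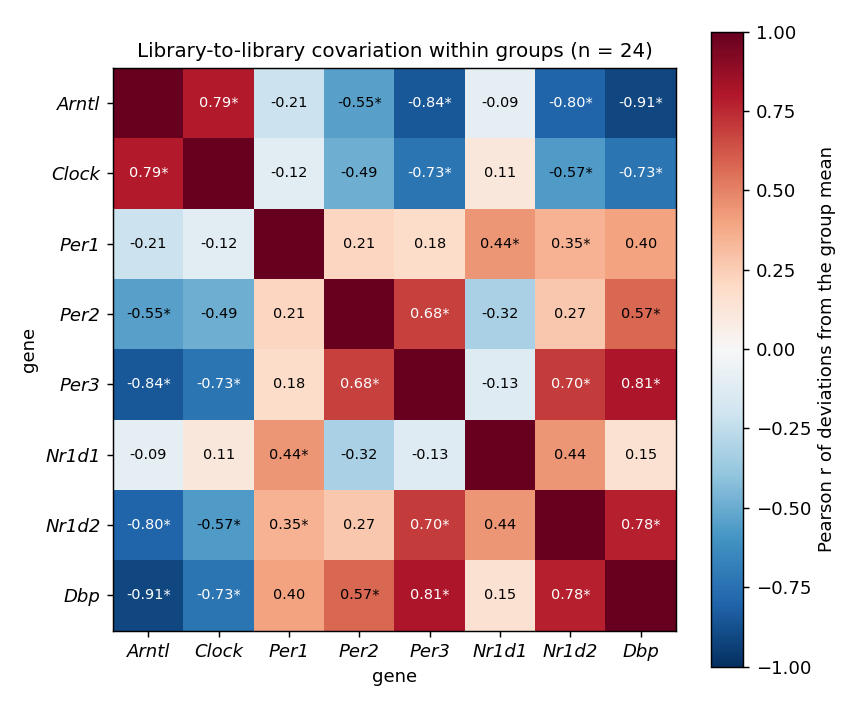
Pearson r between clock genes of the deviations of log2 CPM from the group mean, over 24 libraries, with an asterisk where the permutation p adjusted over 28 pairs is under 0.05. Arntl and Clock are related by 0.79, and Per3, Nr1d2 and Dbp by 0.70 to 0.81. Between these sets r runs from -0.57 (Clock and Nr1d2) to -0.91 (Arntl and Dbp). Per2 has asterisks with Arntl (-0.545), Per3 (0.683) and Dbp (0.575), while Per1 and Nr1d1 have weaker relations.

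These relations stood out among all genes as well as within the list. Ranked by size of the within-group correlation with Dbp over 15064 other genes, Arntl came first, with 0 genes above it. Per3 had 2 genes above it, Nr1d2 3, Clock 7 and Per2 129. Ranked against Arntl, Dbp had 0 genes above it, Per3 1, Nr1d2 4 and Clock 5. The median size of r over all genes was 0.17 with Dbp and 0.19 with Arntl. Per1 (0.40 with Dbp, 1237 genes above it) and Nr1d1 (0.15, 8132 genes above it) did not stand out. These ranks describe the 24 libraries and carry no test.

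Nr1d1 did not follow Dbp in the same way in every group. Its within-group correlation with Dbp was 0.94 at 1 day, 0.57 at 3 days and 0.69 at 12 weeks, and -0.95 in sham (Spearman's rho 0.77, 0.60, 0.54 and -0.83, n = 6 each). The exact permutation p-values of r were 0.0111, 0.243 and 0.144 in the SCI groups in order of time and 0.00694 in sham, and their adjusted values over 112 tests were 0.0667, 0.419, 0.3 and 0.0667. In sham the library with the most Nr1d1, replicate 2 at 55.6 CPM, had the least Dbp at 3.56 CPM, and the library with the least Nr1d1, replicate 3 at 10.02 CPM, had the most Dbp at 13.4 CPM. Without the 2 sham libraries farthest from the median of Nr1d1, which were these, r was -0.60. At 12 weeks r turned to -0.89 without the 2 farthest libraries. Without the sham group, r of Nr1d1 was 0.743 with Dbp and 0.738 with Nr1d2 (permutation adjusted p = 0.0146 and 0.0323). Over all 24 libraries these were 0.151 and 0.443, and neither passed. Whether the relation differs between SCI and sham libraries was not tested.

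**Figure D5:**
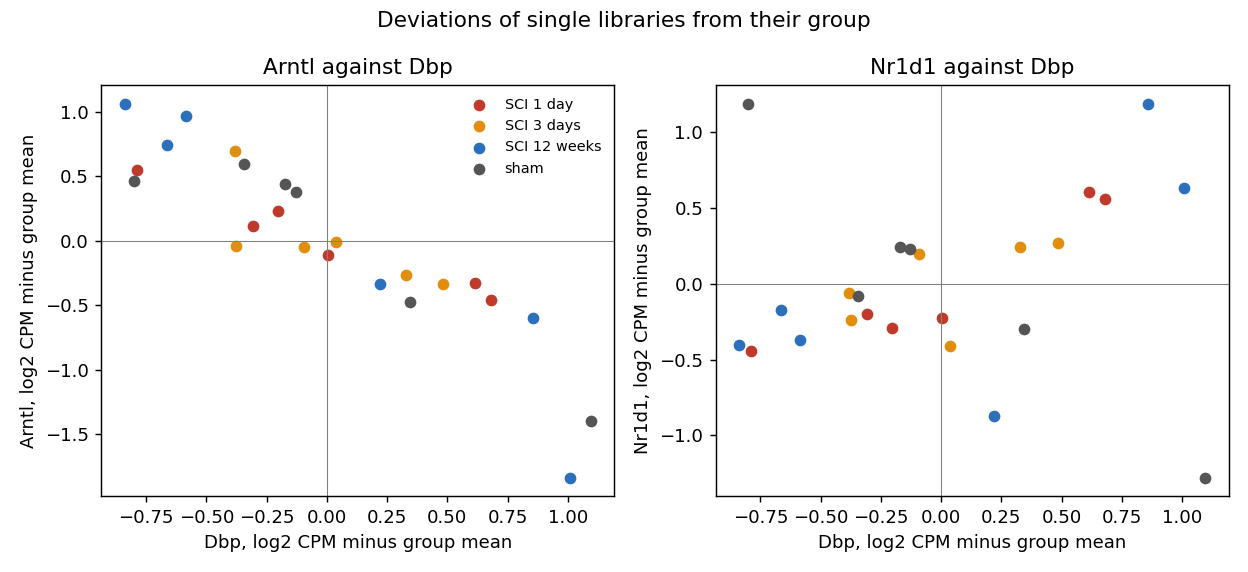
Deviation of log2 CPM from the group mean for Arntl (left) and Nr1d1 (right) against that of Dbp, 1 point per library, coloured by group. The Arntl points descend over all groups together (r = -0.91), though in sham only through 2 libraries (r = -0.25 without them), while for Nr1d1 the sham points descend (r = -0.95) and the 1 day points rise (r = 0.94).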

How the data were processed

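The authors deposited 1 table of raw counts per Ensembl gene ID for 24 libraries, named for protein-coding genes in the labels. The submitters' processing notes name the genome build mRatBN7.2 and the tools STAR 2.7.11a, featureCounts 2.0.6 and FastQC 0.12.1. Annotation release, strand setting and the handling of multi-mapping reads were not given in the sources used here, so overlapping or antisense genes may share reads. Of 26166 lines, repeated lines of an ID were identical and used once. Even numbers made up 58.1 to 61.1% of counts between 1 and 200, which means that a count need not be an independent fragment. Pairs of libraries within groups differed beyond sampling noise, with a chi-square per degree of freedom of 13.3 to 115.3 over 60 pairs.

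Counts were fitted in R 4.3.3 with edgeR 4.0.16: filterByExpr, TMM factors, 1 term per group over all 24 libraries without covariates, and two-sided quasi-likelihood F tests with Benjamini-Hochberg adjustment over 15065 genes. Standard errors derive from the F statistic. Correlations used log2 CPM with a prior count of 2, centred by group, with 100000 permutations within groups, and exact permutation for single groups. In 1 set of simulated counts for 12 weeks against 3 days over 15065 genes, 67.2%, 89.6% and 98.5% of genes changed 1.5-fold, 2-fold and 4-fold were recovered, with 4 of 174 calls false. Only 67, 67 and 66 genes were changed, from sham levels, whereas 31.3% of genes were called in the data. The spread between libraries (edgeR's biological coefficient of variation) was 0.169 in common and from 0.108 (Per1) to 0.422 (Arntl) for the clock genes. The simulated rates are thus not rates for these genes. Alternatives were DESeq2 1.42.0 and limma 3.58.1, DESeq2 size factors, no filter, fits of only the groups compared, a replicate block, and leaving out each library. The members and lists were chosen with earlier results of these data known. Beside the 8 members, the genes named are those with the highest correlation with Dbp and with Arntl over 24 libraries at a mean log2 CPM of at least 1. The lists of other clock genes and of cell type markers need symbols, which 0 of the table's IDs could be given here, and were not used. The tissue was not checked against its markers.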

Additional observations from a re-analysis of the deposited data

Results flagged for a closer look

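Each gene in each group was examined for 1 library far from the other 5, by the gap to its nearest neighbour as a share of the group's range, against Dixon's 95% critical value for 6 samples. Of 32 sets of 6 libraries, 4 held such a library, and chance gives about 1 in 20. Arntl in 3 day replicate 4 had 13.8 CPM, above the 6.75 to 8.47 CPM of the others. Per1 in 12 week replicate 4 had 253.8 CPM, above the 209.0 to 217.4 CPM of the others. Per1 in sham replicate 5 had 208.4 CPM, below the 239.4 to 257.1 CPM of the others. Per3 in sham replicate 3 had 49.1 CPM, above the 10.1 to 23.1 CPM of the others.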

How the results depend on the processing

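With DESeq2, limma-voom and DESeq2 size factors, all 48 log2 fold changes of the 8 genes in 6 comparisons kept their direction and their side of the threshold. Without the filter on low counts the call of Clock at 12 weeks against 1 day was lost (0.24). In fits of only the groups compared Per3 at 12 weeks against sham was lost (0.90), and Arntl at 3 days against 1 day (0.89) and Per2 at 12 weeks against 1 day (0.36) were gained. Leaving out 1 of 24 libraries, 1110 of 1152 values kept both. Many of these values leave out a library of neither group compared, which enters only through the shared filter, scaling and spread. The share kept is thus no measure of dependence on the libraries compared. The comparison of 3 days with 1 day depended most on single libraries: 1 to 2 members and 170 to 653 genes were called, the fewest without 1 day replicate 5 and the most without 12 week replicate 3, against 413 with all libraries. DESeq2 called 811 genes there and a fit of those groups alone 259. Per1 at 12 weeks against 3 days, near 0, ranged from -0.0556 to 0.0322 and changed sign without 3 day replicate 1 or 4 or 12 week replicate 2, 3, 5 or 6. Of the 28 correlations, 9 in place of 15 passed without the 12 week group, and 11 to 17 did leaving out single libraries. The changes of sign were all in pairs with Nr1d1. They were those with Arntl (0.364 without the 12 week group), Clock (-0.286 without sham), Per2 (0.371 without sham), Per3 (0.614 without sham) and Dbp (-0.012 without the 1 day group, -0.218 without the 12 week group). Leaving out single libraries, r of Nr1d1 ranged from -0.427 to 0.08 with Arntl (positive without 12 week replicate 1 or 4), from -0.13 to 0.222 with Clock and from -0.325 to 0.354 with Per3 (both changed sign without sham replicate 3), and from -0.012 to 0.478 with Dbp (negative without 12 week replicate 4). The cause was not tested. Replicate numbers did not pair libraries: same-numbered libraries correlated between -0.18 and 0.15 in their deviations, and 2 of 24 correlated best with their own number. With the replicate number as a block, 1 member in place of 2 was called at 3 days against 1 day, as Dbp missed the threshold (-1.17, edgeR adjusted p = 0.0737), and no other member call changed.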

Other observations

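Some genes without a name had correlations with Dbp or Arntl in the range of those of the members, such as 0.923 between Per3 and Dbp over all libraries. Over all 24 libraries, log2 CPM of ENSRNOG00000003515 (r = 0.927) and ENSRNOG00000020349 (r = 0.924) was most like Dbp, and that of ENSRNOG00000000521 (r = 0.917) and ENSRNOG00000054515 (r = 0.903) most like Arntl, among genes outside the list. Within groups their correlations were 0.72 and 0.474 with Dbp, and 0.806 and 0.724 with Arntl. The deposited table pairs these IDs with no symbol. The values over all libraries hold the differences between groups and are a description.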
